A study of Mus musculus with 9 samples.

Results

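The HSP70 and HSP110 chaperone genes of the cytosol and nucleus were followed in mouse embryonic fibroblasts in which the heat shock transcription factor HSF1 or the DNA-binding protein RPA1 had been targeted with a short hairpin RNA (shRNA). The 9 genes were named as a family: Hspa1a, Hspa1b, Hspa1l, Hspa2, Hspa4, Hspa4l, Hspa8, Hspa14 and Hsph1. A gene was measured by the array row (probe set) that carried its symbol alone, and where there were several by the brightest, on average over all 9 arrays. Of the 9 genes, 8 had such a row, out of 19938 genes measured in this way. Hspa1b was named only in 1 row that it shares with Hspa1a.

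Groups of 3 GeneChip Mouse Gene 1.0 ST arrays were compared, all from immortalized fibroblasts of ICR mice. One group received an adenovirus with an shRNA against HSF1, another an adenovirus with an shRNA against RPA1, and the control group an adenovirus with a control shRNA (scr in the labels). All 3 groups, the control included, took up virus at 1e8 pfu per ml for 2 h and stayed in normal medium for 70 h at 37 degrees, and the labels mention neither a heat shock nor uninfected cells. The question was whether HSF1 and RPA act on gene expression as one complex. The labels name no sequence or second hairpin for either target and leave it unsaid if the arrays of each group are separate cultures, so p-values measure the spread between these arrays, which may be technical.

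HSP70 proteins bind exposed hydrophobic stretches of unfolded proteins and hold or release them in a cycle of ATP binding and hydrolysis. J-domain proteins (HSP40) stimulate the hydrolysis, and nucleotide exchange factors reset the cycle by removing ADP. The HSP110 proteins, encoded by Hsph1, Hspa4 and Hspa4l, are enlarged relatives of HSP70 that act as such exchange factors. Hspa8 encodes the constitutive HSC70 of all cells, while Hspa1a and Hspa1b encode the classical HSP70 that HSF1 induces on heat shock. HSF1 binds heat shock elements, arrays of inverted GAA units.

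The promoters of Hspa1a and Hspa1b and of the HSP110 genes Hsph1, Hspa4l and Hspa4 are printed to show where such units lie. Those of Hspa1l, Hspa2 and Hspa14 were searched in the same way and are not printed. The sequences are from RefSeq (GRCm38.p6), 250 bases before to 50 bases after the annotated start, 5′ to 3′ on the gene's strand. Such windows were found for 8 of the 9 genes, all but Hspa8. Capitals mark pairs of units (GAANNTTC or TTCNNGAA), the 3-unit heat shock element (GAANNTTCNNGAA or TTCNNGAANNTTC, which contains such pairs) and CCAAT boxes (CCAAT or ATTGG), all searched on both strands. The window of Hspa1a lies at chr17:34972107-34972406 (minus strand), that of Hspa1b at chr17:34959189-34959488 (minus strand), that of Hsph1 at chr5:149636287-149636586 (minus strand), that of Hspa4l at chr3:40745363-40745662 (plus strand) and that of Hspa4 at chr11:53300430-53300729 (minus strand).
Hspa1a promoter: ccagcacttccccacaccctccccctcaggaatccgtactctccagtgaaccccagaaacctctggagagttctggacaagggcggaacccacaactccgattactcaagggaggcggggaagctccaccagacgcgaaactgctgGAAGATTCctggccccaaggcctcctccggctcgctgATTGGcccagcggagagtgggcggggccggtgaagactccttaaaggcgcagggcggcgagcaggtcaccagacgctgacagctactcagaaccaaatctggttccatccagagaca
Hspa1b promoter: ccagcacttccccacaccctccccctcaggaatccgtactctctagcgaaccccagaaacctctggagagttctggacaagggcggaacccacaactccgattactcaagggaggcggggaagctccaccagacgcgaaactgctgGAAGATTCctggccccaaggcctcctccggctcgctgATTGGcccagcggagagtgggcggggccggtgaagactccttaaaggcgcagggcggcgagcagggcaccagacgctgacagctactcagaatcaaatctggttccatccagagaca
Hsph1 promoter: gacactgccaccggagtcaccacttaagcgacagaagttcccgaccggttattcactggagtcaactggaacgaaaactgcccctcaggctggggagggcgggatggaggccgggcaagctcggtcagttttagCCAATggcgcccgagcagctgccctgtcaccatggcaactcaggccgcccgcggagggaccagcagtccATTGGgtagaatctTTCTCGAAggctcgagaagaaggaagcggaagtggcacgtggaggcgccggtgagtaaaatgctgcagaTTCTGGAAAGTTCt
Hspa4l promoter: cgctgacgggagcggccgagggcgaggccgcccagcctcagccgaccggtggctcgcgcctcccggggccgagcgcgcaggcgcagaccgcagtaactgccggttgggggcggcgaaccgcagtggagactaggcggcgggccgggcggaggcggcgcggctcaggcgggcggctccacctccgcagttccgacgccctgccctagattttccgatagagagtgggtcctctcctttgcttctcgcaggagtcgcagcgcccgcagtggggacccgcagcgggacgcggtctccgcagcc
Hspa4 promoter: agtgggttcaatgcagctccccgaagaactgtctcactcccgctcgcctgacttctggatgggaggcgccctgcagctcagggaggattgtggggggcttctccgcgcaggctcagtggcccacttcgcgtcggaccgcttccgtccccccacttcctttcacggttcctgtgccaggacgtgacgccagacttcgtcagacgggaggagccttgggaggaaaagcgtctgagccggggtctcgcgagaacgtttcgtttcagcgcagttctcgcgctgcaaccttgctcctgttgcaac

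Of the members matched, only Hsph1 had a window with the full 3-unit element, found in 0.603% of the 32851 promoters in the table. Its letters begin 37 bases into the transcript from this start, and at 16 from the second annotated start of the gene. A further pair of units, TTCTCGAA, lies at -33. The Hspa1a and Hspa1b windows each held 1 pair of units, GAAGATTC, at -104. Pairs with GAA first were found in 7.86% of all promoters, and pairs with TTC first in 8.52%. No unit pair was found in the windows of Hspa1l, Hspa2, Hspa4, Hspa4l or Hspa14. CCAAT boxes, which 37.4% of all promoters held, were found in the windows of Hsph1, Hspa1a, Hspa1b, Hspa1l, Hspa2 and Hspa14, with 3 in that of Hspa14. TATAAA on the gene strand, found in 8.32% of promoters, was in none of the members' windows. These matches describe letters and not bound sites. Elements with an inexact unit, or outside the windows, were not searched for, so a window without a match does not show that a gene lacks one.

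The Hspa1a and Hspa1b windows differed at 4 of 300 bases (98.7% identical). With positions counted from 1 at the 5′ end of the window and the Hspa1a base first, the differences are C44T, T47C, T249G and C276T. Hspa1b, Hspa1a and Hspa1l are neighbours on the chromosome. The annotated starts of Hspa1a and Hspa1l are 547 bases apart and face away from each other.

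Before the members are described, some properties of the arrays bear on them. Rpa1 read 9.42, 9.34 and 9.40 in the RPA1 shRNA arrays, against 11.40, 11.42 and 11.41 in the control arrays (log2 difference -2.02 ± 0.04, standard error, limma adjusted p = 3.5e-08, n = 3 arrays per group). Hsf1 itself was not analysed here, and no check of the HSF1 knockdown is given. Array 3 of the RPA1 shRNA group stood apart: its difference from the control mean was 0.685 times (median) that of the group's other arrays, over the 408 genes that were 2-fold or more away from the control mean in both of those, while this ratio was 0.909 to 1.07 for the other 5 knockdown arrays. Where leaving out this array changed the call of a gene or row named here, or moved a called difference or one near the threshold by over 1.5 times, the value without it is given. Of 10 fibroblast markers 9 lay above the median gene, against 2 of 6 epithelial, 1 of 6 blood, 1 of 5 muscle, 0 of 5 endothelial and 0 of 5 germ cell markers. The mean level of the fibroblast markers was 11.6 to 11.7 in HSF1 shRNA arrays and 11.1 to 11.3 in RPA1 shRNA arrays, against 11.8 in each control array, on the log2 scale. Of these 10, 1 was higher and 4 were lower with HSF1 shRNA, and 0 were higher and 7 lower with RPA1 shRNA, where 6.21% and 14.7% of all genes were called lower. The mean level of the 6 blood markers was 6.76 to 6.92 in the control arrays. It was 7.04 to 7.08 with HSF1 shRNA and 7.28 to 7.33 with RPA1 shRNA. With RPA1 shRNA the median of their log2 differences was 0.12 and the largest was 2.06, so that marker weighs heavily in the mean. With HSF1 shRNA 1 was called higher and with RPA1 shRNA 2, where 9.89% and 15.4% of all genes were. The mean level of the 6 epithelial markers was 8.05 to 8.08 with HSF1 shRNA and 7.73 to 7.98 with RPA1 shRNA, against 7.82 to 7.90 in the control. With either hairpin 0 were called, although all 6 differences were positive with HSF1 shRNA. Between the hairpins 3 of 6 epithelial and 6 of 10 fibroblast markers were higher with HSF1 shRNA and 0 lower, where 14.7% of all genes were higher. Of the 6 blood markers 0 were higher there and 1 was lower. The part of these markers in the results was not tested. In bulk RNA fewer cells of a kind and less RNA per cell cannot be told apart.

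With HSF1 shRNA, 3 of the 8 measured members were higher than in the control and 0 lower at a limma adjusted p under 0.05 (two-sided, adjusted over all 19938 genes): Hspa4l, Hsph1 and Hspa14. Of all genes 16.1% were called in this comparison, 9.89% higher and 6.21% lower. The difference was positive for 7 of the 8 members, and their median log2 difference was 0.18, against 0.04 over all genes. All 3 HSF1 shRNA arrays lay above all 3 control arrays for 6 members and below them for 1, while 37.9% of all genes had groups that did not overlap, 23.9% above and 13.9% below. The count of 3 fell to 1, Hspa4l, when any 1 of the 6 arrays compared was left out, and was 4 without RPA1 shRNA array 3 and 2 without RPA1 shRNA array 1. The majority of higher calls over all genes depended on the scaling: it was 1971 higher and 1239 lower as deposited, 1593 and 1717 with arrays centred on their median.

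With RPA1 shRNA, 3 members were called against the control, where 30.1% of all genes were, 15.4% higher and 14.7% lower. Hsph1 and Hspa4 were higher and Hspa2 was lower. The median log2 difference of the members was 0.05, against 0.02 over all genes, with 4 differences positive and 4 negative. All RPA1 shRNA arrays lay above the control arrays for 2 members and below them for 3, against 21.9% and 19.2% of all genes (41% in either direction). Without RPA1 shRNA array 3 the count was 5, with Hspa4l and Hspa14 added as lower, and without any 1 control array it was 2. Both comparisons share the control arrays, so their results are given side by side and not counted against each other.

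Set directly against each other, HSF1 shRNA arrays were higher than RPA1 shRNA arrays for 3 members, Hspa4l, Hspa2 and Hspa14, and lower for 0, where 24.4% of all genes were called, 14.7% higher and 9.71% lower. This count was 3 without any 1 of the 9 arrays. The members' median log2 difference was 0.09, against 0.02 over all genes. All HSF1 shRNA arrays lay above the RPA1 shRNA arrays for 4 members and below them for 2, against 20.5% and 14.1% of all genes (34.5% in either direction). Over all genes 2928 calls were higher and 1935 lower as deposited, and 2426 and 2672 with arrays centred on their median.

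**Figure D1:**
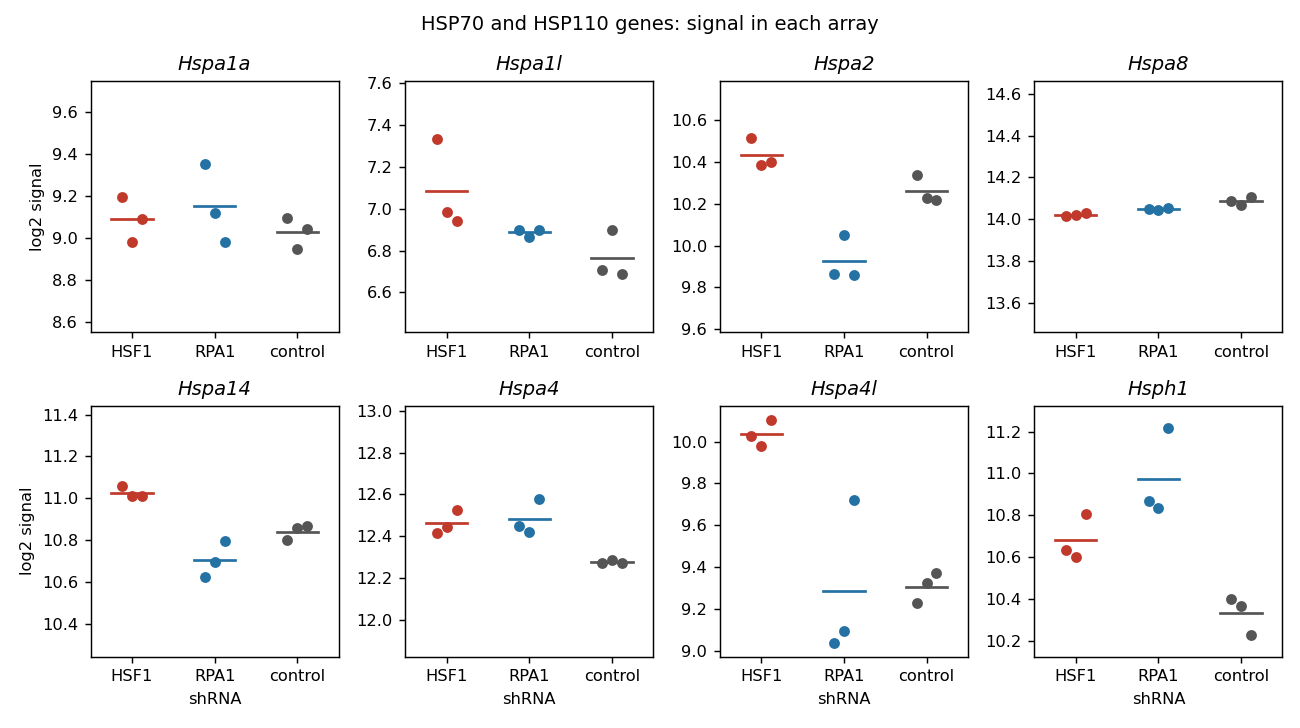
Log2 signal (y axis, 1.2 log2 units in each panel) of the 8 measured members in each array, by shRNA (x axis); each point is 1 array and each bar the mean of 3. The HSF1 shRNA arrays lie above all others for Hspa4l, with RPA1 shRNA array 3 at 9.72 the next. Hsph1 is higher in both knockdowns, and the brightest row of Hspa8, shown here, hardly varies.

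Among the HSP110 genes, Hsph1, which encodes HSP105, was higher with both hairpins. It read 10.64, 10.60 and 10.81 with HSF1 shRNA and 10.87, 10.84 and 11.22 with RPA1 shRNA, against 10.40, 10.37 and 10.23 with control shRNA, on the log2 scale. The order of the means was RPA1 shRNA, HSF1 shRNA, control, and the arrays of the 3 groups did not overlap. With RPA1 shRNA it was 1.56-fold higher (log2 difference 0.64 ± 0.10, adjusted p = 0.0013). Without RPA1 shRNA array 3, the highest of all 9, the difference was 0.52 ± 0.08 (adjusted p = 0.00058). With HSF1 shRNA it was 1.27-fold higher (0.35 ± 0.10, adjusted p = 0.049), a call that was lost without any 1 of the 6 arrays compared (adjusted p up to 0.17) or without RPA1 shRNA array 1 (0.057), and under all 4 other scalings. The difference between the hairpins did not pass (HSF1 shRNA minus RPA1 shRNA -0.29 ± 0.10, adjusted p = 0.068, 95% interval -0.53 to -0.06). It passed under 3 other scalings (adjusted p = 0.044 to 0.048), with array weights (0.042) and with the dimmer genes left out (0.041). It was -0.17 ± 0.08 without RPA1 shRNA array 3 (0.12).

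Hspa4l, which encodes the HSP110 protein APG-1 (also Osp94), was the member with the largest difference under HSF1 shRNA. It read 10.03, 9.98 and 10.10 with HSF1 shRNA and 9.04, 9.09 and 9.72 with RPA1 shRNA, against 9.23, 9.32 and 9.37 with control shRNA. The HSF1 shRNA arrays lay above all others. RPA1 shRNA arrays 1 and 2 lay below the control arrays and array 3 above them. With HSF1 shRNA it was 1.66-fold higher than in the control (log2 difference 0.73 ± 0.15, adjusted p = 0.011), and 0.687% of all genes had a larger difference. Leaving out any 1 of the 9 arrays gave 0.69 to 0.76, with adjusted p of at most 0.047. Against RPA1 shRNA it was 1.68-fold higher with HSF1 shRNA (0.75 ± 0.15, adjusted p = 0.0063).

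For Hspa4l the RPA1 shRNA result turned on array 3. With all arrays the log2 difference from the control was -0.02 ± 0.15 (adjusted p = 0.94, 95% interval -0.36 to 0.32). Without array 3 it was -0.24 ± 0.06 (adjusted p = 0.012). The SD of the RPA1 shRNA group was 0.38, larger than in 97.8% of genes, against 0.06 in the HSF1 shRNA group and 0.07 in the control group. This SD enters the standard error of every Hspa4l comparison: without the array the difference of HSF1 shRNA from the control was the same, 0.73, with a standard error of 0.05 (adjusted p = 6.7e-05).

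Hspa4, which encodes the HSP110 protein APG-2, had similar values with both hairpins. It read 12.42, 12.44 and 12.53 with HSF1 shRNA and 12.45, 12.42 and 12.58 with RPA1 shRNA, against 12.27, 12.29 and 12.27 with control shRNA. All 6 knockdown arrays lay above the control arrays and the knockdown groups overlapped. With RPA1 shRNA it was 1.15-fold higher (log2 difference 0.20 ± 0.06, adjusted p = 0.020). This call was lost without any 1 control array (adjusted p = 0.051 to 0.061). With HSF1 shRNA the difference was 0.18 ± 0.06, just outside the threshold (adjusted p = 0.0502). It was inside it in 8 of 20 alternative runs, among them the 6 arrays alone (0.022) and without RPA1 shRNA array 3 (0.016). It stayed outside under all 4 other scalings (0.065 to 0.17) and without any 1 of the 6 arrays compared (0.064 to 0.16). Between the hairpins the difference was -0.02 ± 0.06 (95% interval -0.14 to 0.11).

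**Figure D2:**
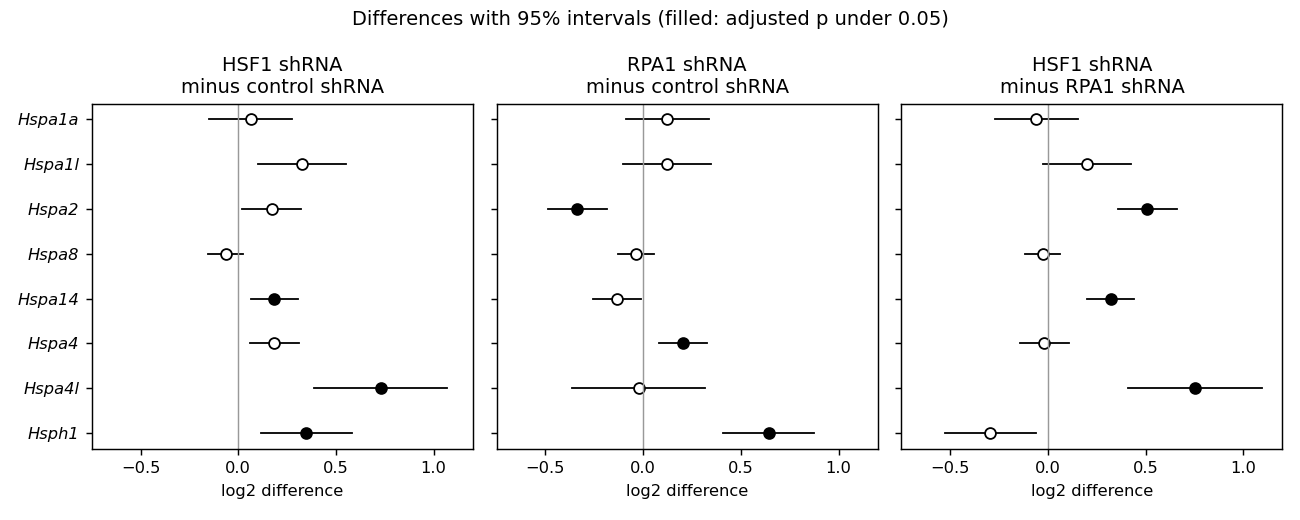
Log2 difference (x axis) of each measured member in the 3 comparisons, with 95% intervals from the limma fit to 9 arrays; filled points have an adjusted p under 0.05. Hspa4l and Hsph1 have the largest differences from the control, 0.73 under HSF1 shRNA and 0.64 under RPA1 shRNA. Between the hairpins Hspa4l has the largest, 0.75. For the rows plotted, the intervals of Hspa8 and Hspa1a include 0 in all 3 comparisons, which does not hold for every other row naming these genes.

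Hspa8, the gene of constitutive HSC70, was called in none of the 3 comparisons. Its brightest row, 10528021, read 14.01, 14.02 and 14.03 with HSF1 shRNA and 14.05, 14.04 and 14.06 with RPA1 shRNA, against 14.09, 14.07 and 14.11 with control shRNA. The 3 groups did not overlap, but the differences were small: -0.07 ± 0.04 for HSF1 shRNA (adjusted p = 0.34, 95% interval -0.16 to 0.03) and -0.04 ± 0.04 for RPA1 shRNA (adjusted p = 0.55, 95% interval -0.13 to 0.05). The SD of this row within a group was 0.0055 to 0.018, and at most 11.8% of genes had a smaller one. Whether so bright a row can show changes in full was not tested.

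Hspa8 had 2 more rows of its own. By probe set number, row 10584572 sits among rows for the genes that flank Hspa8 in RefSeq (14 of the 20 nearest rows name a gene within 20 genes of it), while 0 of 20 did for rows 10528021 and 10368025. Row 10584572 read 12.83, 13.00 and 13.06 with HSF1 shRNA and 13.09, 13.01 and 13.09 with RPA1 shRNA, against 13.15, 13.04 and 13.23 with control shRNA, with overlapping groups. Its differences were -0.18 ± 0.07 for HSF1 shRNA (adjusted p = 0.13 over 23410 rows) and -0.08 ± 0.07 for RPA1 shRNA (adjusted p = 0.46). Row 10368025 gave -0.08 ± 0.04 (adjusted p = 0.24) and -0.04 ± 0.04 (adjusted p = 0.53). All 3 rows were on the lower side with both hairpins and none passed. Which copies of the sequence each row detects is not given in the sources used here, so the level of Hspa8 is uncertain where near-identical copies share signal.

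A further pair of rows, 10584576 and 10584578, named Hspa8 together with Snord14c and Snord14d, small nucleolar RNAs whose genes lie within Hspa8 in RefSeq and which guide the processing and modification of ribosomal RNA. The values of both rows were identical, so they count as 1 measurement. They read 9.81, 9.93 and 9.41 with HSF1 shRNA and 10.15, 10.12 and 10.87 with RPA1 shRNA, against 10.49, 10.16 and 10.46 with control shRNA. The HSF1 shRNA arrays lay below all others, and RPA1 shRNA array 3 was the highest. In a fit to every annotated row, the log2 difference of HSF1 shRNA was -0.65 ± 0.21 from the control (adjusted p = 0.064) and -0.66 ± 0.21 from RPA1 shRNA (adjusted p = 0.047). Without RPA1 shRNA array 3 these were -0.65 ± 0.13 from the control (adjusted p = 0.0087) and -0.42 ± 0.15 from RPA1 shRNA (0.068), so that array decided both calls. The rows do not separate the host gene from the small RNAs.

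Hspa1a, one of the heat-inducible HSP70 genes, did not pass in any of the 3 comparisons. It read 9.20, 8.98 and 9.09 with HSF1 shRNA and 9.35, 9.12 and 8.98 with RPA1 shRNA, against 9.09, 8.95 and 9.04 with control shRNA. The 3 groups overlapped. The log2 difference was 0.06 ± 0.09 for HSF1 shRNA (adjusted p = 0.72, 95% interval -0.15 to 0.28) and 0.12 ± 0.09 for RPA1 shRNA (adjusted p = 0.38, 95% interval -0.09 to 0.34). These intervals reflect only the spread between these arrays, and no check of the HSF1 knockdown is given, so they set no firm bound on a fall. The HSF1 shRNA difference was 0.01 without HSF1 shRNA array 1, 0.12 without array 2 and 0.03 with arrays centred on their median. The RPA1 shRNA difference depended on single arrays: it was 0.02 without RPA1 shRNA array 1 and 0.21 without array 3 (adjusted p = 0.88 and 0.094). With array weights it was 0.27 and passed (0.013), as did HSF1 shRNA minus RPA1 shRNA (-0.25, 0.025).

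The row that Hspa1a shares with Hspa1b read 10.56, 10.47 and 10.55 with HSF1 shRNA and 10.58, 10.76 and 10.42 with RPA1 shRNA, against 10.47, 10.39 and 10.32 with control shRNA. The HSF1 shRNA arrays lay just above the control arrays and the RPA1 shRNA arrays overlapped them. Its differences were 0.13 ± 0.08 for HSF1 shRNA (adjusted p = 0.33 over 23410 rows) and 0.20 ± 0.08 for RPA1 shRNA (adjusted p = 0.11). Without RPA1 shRNA array 3 the RPA1 shRNA difference was 0.28 ± 0.07 and passed (0.013). Since the genes are near-identical, the row of Hspa1a alone may also hold signal of Hspa1b, and the copies are not separated here.

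**Figure D3:**
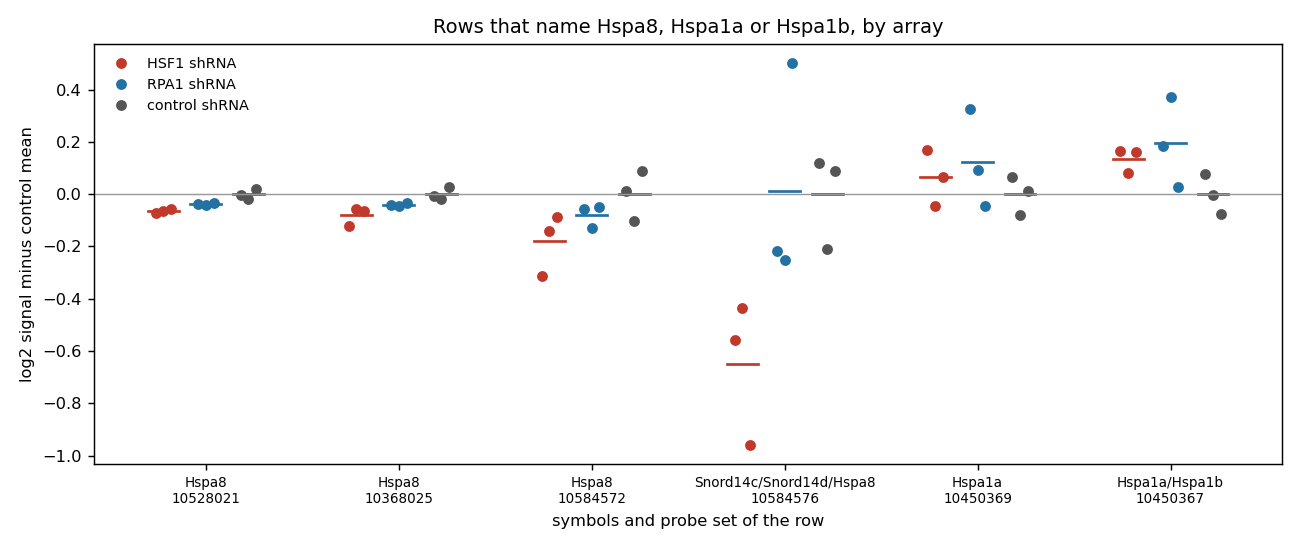
Log2 signal minus the mean of the control arrays (y axis) for the rows that name Hspa8, Hspa1a or Hspa1b (x axis); each point is 1 array and each bar the mean of a group. The HSF1 shRNA means of the 3 Hspa8 rows lie 0.07, 0.08 and 0.18 below the control mean, while the row shared with Snord14c and Snord14d lies 0.65 below it.

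Hspa2, an HSP70 gene known for its need in male meiosis and also expressed outside the testis, was lower with RPA1 shRNA than in the control and than with HSF1 shRNA. It read 10.51, 10.39 and 10.40 with HSF1 shRNA and 9.86, 10.05 and 9.86 with RPA1 shRNA, against 10.34, 10.23 and 10.22 with control shRNA. The groups did not overlap, in the order HSF1 shRNA, control, RPA1 shRNA. With RPA1 shRNA it was 1.26-fold lower (log2 difference -0.34 ± 0.07, adjusted p = 0.0042), a call held without any 1 array (-0.40 to -0.30, adjusted p of at most 0.021). The HSF1 shRNA difference of 0.17 ± 0.07 did not pass (adjusted p = 0.12, 95% interval 0.02 to 0.32). Between the hairpins the difference was 0.51 ± 0.07 (1.42-fold, adjusted p = 0.00086), and 3.75% of all genes had a larger one.

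Hspa14, which encodes the HSP70 relative of the ribosome-associated complex that meets nascent chains, showed the same order of groups. It read 11.06, 11.01 and 11.01 with HSF1 shRNA and 10.62, 10.70 and 10.80 with RPA1 shRNA, against 10.80, 10.86 and 10.87 with control shRNA. The groups did not overlap, although RPA1 shRNA array 3 and control array 1 both round to 10.80. With HSF1 shRNA it was 1.14-fold higher (log2 difference 0.18 ± 0.05, adjusted p = 0.046). This call was lost without any 1 of the 6 arrays compared (adjusted p up to 0.14) or without RPA1 shRNA array 2 (0.057). It was also lost under all 4 other scalings and with the replicate number as a block (0.076). The RPA1 shRNA difference was -0.14 ± 0.05 (adjusted p = 0.092), and -0.18 ± 0.05 without array 3 (adjusted p = 0.018). HSF1 shRNA exceeded RPA1 shRNA by 0.32 ± 0.05 (adjusted p = 0.0028), and this passed under every alternative run.

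Hspa1l, which encodes an HSP70 that is abundant in spermatids, had a dim row here, below the median gene (8.39). It read 7.33, 6.98 and 6.94 with HSF1 shRNA and 6.90, 6.87 and 6.90 with RPA1 shRNA, against 6.70, 6.90 and 6.69 with control shRNA. HSF1 shRNA array 1 was the highest of the 9. The HSF1 shRNA difference of 0.32 ± 0.10 did not pass (adjusted p = 0.057) and was 0.20 without that array (adjusted p = 0.11). It passed with array weights (0.027), an intensity trend and robust prior (0.048), median centring (0.041) and quantile scaling over all rows (0.038). The RPA1 shRNA difference was 0.12 ± 0.10 (adjusted p = 0.41, 95% interval -0.10 to 0.35). Signal over background was not measured here.

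**Figure D4:**
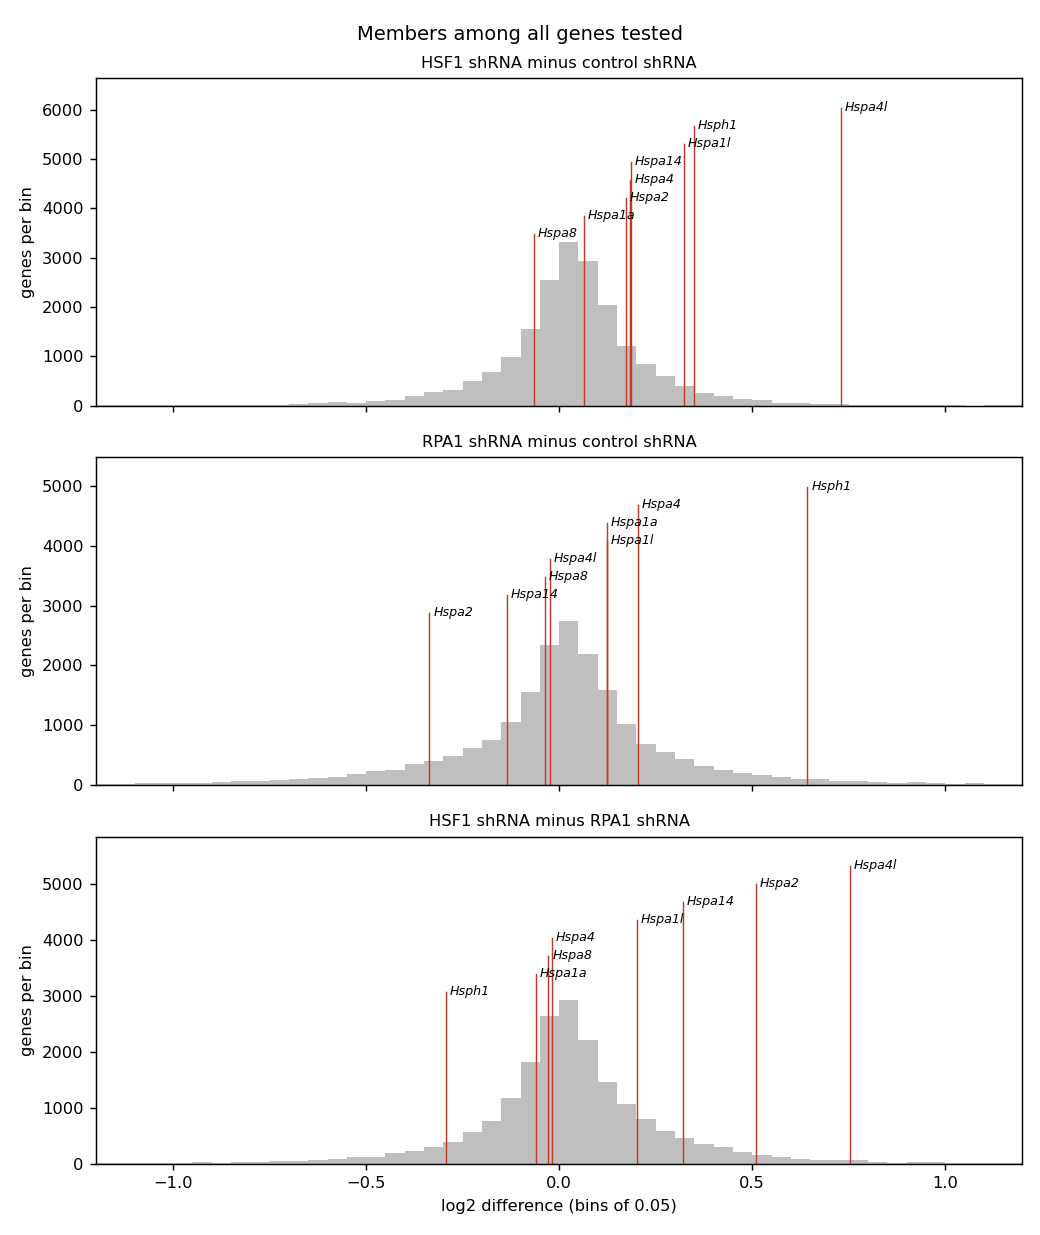
Number of genes (y axis) by log2 difference (x axis, bins of 0.05) over the 19938 genes tested in each comparison, with a red line at each measured member; the height of a line only separates the names. Hspa4l under HSF1 shRNA and Hsph1 under RPA1 shRNA lie in the upper tail, where 0.687% and 2.84% of genes have a larger difference. Between the hairpins Hspa4l and Hspa2 lie in the upper tail, where 1.36% and 3.75% of genes have a larger one. Most other members lie within the bulk.

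Partner genes of the HSP70 cycle were counted in 5 lists with 30 measured genes of 32 (Hsf1 and Hsp90ab1 were not analysed here). With HSF1 shRNA 9 of 30 were higher and 1 lower, against 9.89% higher and 6.21% lower over all genes, and the median log2 difference was 0.03, against 0.04. With RPA1 shRNA 11 were higher and 2 lower, against 15.4% and 14.7%, and the median was 0.08, against 0.02. HSF1 shRNA minus RPA1 shRNA gave 4 higher and 3 lower, against 14.7% and 9.71%, with a median of 0.02 in both. The balance of this last count turned with the scaling: it was 1 higher and 6 lower with arrays centred on their median, 2 and 4 with cyclic loess, and 3 and 4 with either quantile scaling. The partner count under RPA1 shRNA was 8 without control array 3. Of the 10 called with HSF1 shRNA, the count was 5 without control array 1 and 6 without control array 2 or either of the first 2 knockdown arrays. Between the hairpins, where 7 were called, it was 3 or 4 without any 1 of the 6 arrays compared except RPA1 shRNA array 3, without which it was 13. The counts by list that follow are to be read against the same shares of all genes.

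Of the J-domain proteins 4 of 10 passed between the hairpins. With RPA1 shRNA 5 of 10 were higher and 0 lower, where 15.4% of all genes were higher and 14.7% lower. Dnajb5 rose by 0.59 ± 0.12 (adjusted p = 0.0045), Dnaja4 by 0.56 ± 0.06 (0.00014), Dnajb1, the main heat-inducible J-domain protein gene of the cytosol, by 0.34 ± 0.09 (0.015), and Dnajc2, whose product is the partner of the Hspa14 protein on the ribosome, by 0.30 ± 0.08 (0.014). Without RPA1 shRNA array 3, Dnajb5 also passed with HSF1 shRNA (0.33 ± 0.07, 0.0085) and between the hairpins (-0.41 ± 0.08, 0.0028). In that fit Dnaja1 was higher with RPA1 shRNA (0.24 ± 0.08, 0.038) and Dnajb4 was lower (-0.15 ± 0.05, 0.038). Dnajb4 also passed there with HSF1 shRNA (0.18 ± 0.04, 0.016) and between the hairpins (0.32 ± 0.05, 0.00075). Dnaja1 passed there between the hairpins as well (-0.28 ± 0.08, 0.022). With all arrays and HSF1 shRNA, 2 of 10 were higher and 0 lower, Dnajc2 (0.26 ± 0.08, 0.043) and Dnaja2 (0.20 ± 0.05, 0.016). Dnaja4 read 8.82, 8.86 and 8.85 with HSF1 shRNA and 9.42, 9.34 and 9.35 with RPA1 shRNA, against 8.68, 8.85 and 8.89 with control shRNA, so that only the RPA1 shRNA arrays stood above the rest. Dnajb1 with HSF1 shRNA stood at 0.0012 ± 0.087 (adjusted p close to 1, 0.996). Directly compared, Dnaja4 (-0.53 ± 0.06, 0.00044), Dnajb1 (-0.34 ± 0.09, 0.020) and Dnajc7 (-0.18 ± 0.04, 0.011) were lower with HSF1 shRNA than with RPA1 shRNA, and Dnaja2 was higher (0.16 ± 0.05, 0.026).

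Of 7 nucleotide exchange factors and BAG proteins, 2 were higher with HSF1 shRNA, Bag1 (0.49 ± 0.05, adjusted p = 0.00044) and Hspbp1 (0.27 ± 0.05, 0.0050), both genes of exchange factors for HSP70. With RPA1 shRNA 3 were higher, Bag1 (0.33 ± 0.05, 0.0011), Bag2 (0.27 ± 0.07, 0.014) and Hspbp1 (0.14 ± 0.05, 0.047, and 0.083 without RPA1 shRNA array 3), and Bag6 was lower (-0.15 ± 0.05, 0.041). Bag1 read 10.88, 10.75 and 10.78 with HSF1 shRNA and 10.61, 10.65 and 10.69 with RPA1 shRNA, against 10.30, 10.36 and 10.28 with control shRNA, with no overlap between groups. Between the hairpins Bag3, a co-chaperone of selective autophagy, was higher with HSF1 shRNA than with RPA1 shRNA (0.30 ± 0.09, 0.032), as was Bag6 (0.18 ± 0.05, 0.024). Bag1 (0.17 ± 0.06, 0.042) and Hspbp1 (0.15 ± 0.05, 0.049) passed there too without RPA1 shRNA array 3. In that fit Bag4 was lower with RPA1 shRNA than in the control (-0.22 ± 0.06, 0.019).

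In the list of adaptors and HSP90, 1 of 4 measured genes was higher with each hairpin. It was not an adaptor but Hsp90aa1, the inducible cytosolic HSP90 gene (0.29 ± 0.05 with HSF1 shRNA, adjusted p = 0.0043, and 0.30 ± 0.05 with RPA1 shRNA, 0.0014). Stip1, which links HSP70 to HSP90, stood at 0.0041 ± 0.043 (adjusted p = 0.97) with HSF1 shRNA and 0.07 ± 0.04 (0.24) with RPA1 shRNA. St13, the gene of an HSP70-interacting protein, stood at -0.03 ± 0.05 (0.73) with HSF1 shRNA and -0.09 ± 0.05 (0.21) with RPA1 shRNA. The ubiquitin ligase gene Stub1 stood at 0.01 ± 0.06 (0.93) with HSF1 shRNA and -0.15 ± 0.06 (0.096) with RPA1 shRNA. In the direct comparison 0 of these 4 passed limma (1 had an unadjusted p under 0.05).

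Of 6 HSP70 relatives outside the family list, 3 were higher and 1 lower with HSF1 shRNA. Hyou1, an endoplasmic reticulum relative of HSP110, rose by 0.45 ± 0.05 (adjusted p = 0.00035), Hspa5, the gene of the endoplasmic reticulum HSP70 BiP, by 0.36 ± 0.04 (0.00079) and Hspa13 by 0.21 ± 0.05 (0.025), and Hspa12b fell by 0.22 ± 0.07 (0.047). With RPA1 shRNA Hyou1 (0.33 ± 0.05, 0.00051) and Hspa5 (0.26 ± 0.04, 0.0014) were higher and Hspa12b was lower (-0.28 ± 0.07, 0.011). Only Hspa13 passed between the hairpins (0.32 ± 0.05 higher with HSF1 shRNA, 0.0028). Of 3 heat shock factors, Hsf2 was higher with HSF1 shRNA (0.23 ± 0.06, 0.019) and stood at 0.08 ± 0.06 (0.34) with RPA1 shRNA. Hsf4 stood at -0.01 ± 0.11 (0.98) with HSF1 shRNA and 0.30 ± 0.11 (0.071) with RPA1 shRNA, and Hsf5 at -0.07 ± 0.06 (0.53) with HSF1 shRNA and 0.08 ± 0.06 (0.37) with RPA1 shRNA. Between the hairpins 0 of the 3 passed limma (3 had an unadjusted p under 0.05). Hsf4 passed with RPA1 shRNA (0.45 ± 0.08, 0.0015) and between the hairpins (-0.45 ± 0.08, 0.0016) when RPA1 shRNA array 3 was left out.

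**Figure D5:**
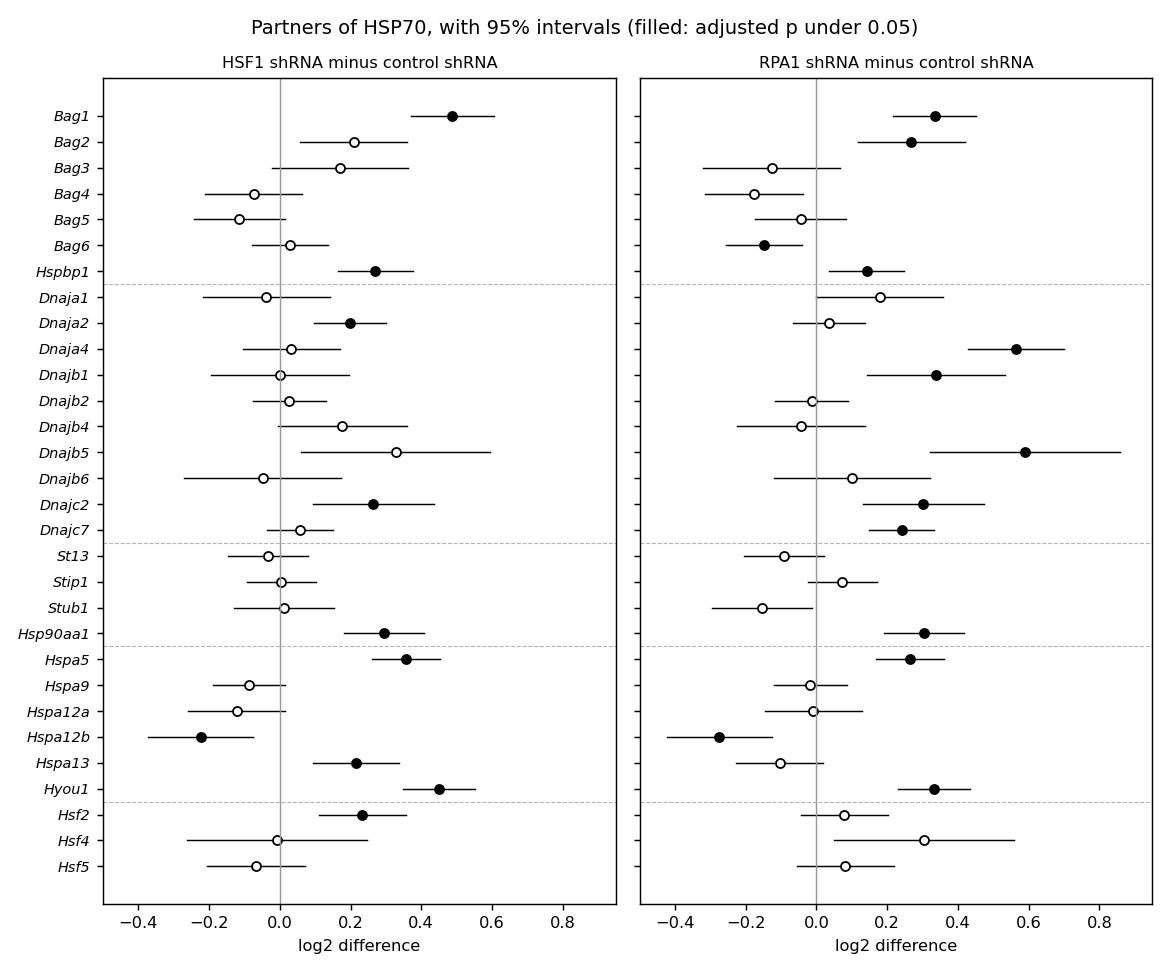
Log2 difference (x axis) of the 30 measured partner genes (y axis, lists separated by dashed lines) with HSF1 shRNA (left) and RPA1 shRNA (right) against the control, with 95% intervals; filled points have an adjusted p under 0.05. Dnaja4 and Dnajb1 are near 0 with HSF1 shRNA and at 0.56 and 0.34 with RPA1 shRNA, while Bag1, Hsp90aa1, Hspa5 and Hyou1 are above 0 in both.

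For each member called against the control, the genes with the most similar profile were found as those with the smallest root mean square difference over the 9 arrays, on log2 values centred on the control mean. For Hsph1 these were Ddx21 (0.08), Klf5 (0.08) and Rin1 (0.09). Ddx21 differed from the control by 0.35 with HSF1 shRNA and 0.64 with RPA1 shRNA, as did Hsph1 to 2 decimals. For Hspa4l they were Flt1 (0.09), Acot9 (0.09) and Dapp1 (0.10), for Hspa4 Allc (0.03), Tagln2 (0.04) and Ehd1 (0.04), for Hspa2 Manba (0.05), Tmem107 (0.06) and Syt14 (0.06), and for Hspa14 Puf60 (0.03), Ttll5 (0.03) and Mcfd2 (0.03). No other member was among them.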

How the data were processed

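The deposited table holds 1 log2 signal per probe set for each of 9 arrays. Per the submitters' processing notes the authors made it with RMA in Partek 6.5; the log base is not stated and log2 was inferred from the range. The genome build is not given in the sources used here. Array medians lay between 7.72 and 7.81. With 3 arrays in each group, their number sets how precise a difference can be. Symbols came from the platform annotation: 21789 of 35557 rows had 1 symbol, 1621 had several and 12147 were not listed. The brightest single-symbol row stood for a gene (19938 genes), with no filter on dim genes. A limma 3.58.1 model (R 4.3.3) with 1 mean per group was fitted to 9 arrays, with 3 contrasts and Benjamini-Hochberg adjustment over all genes, and was tested on simulated data. An exact test of 3 against 3 cannot give a p below 0.1, so calls rest on this model. Errors after ± are standard errors, n = 3 arrays per group. Named were all members, Rpa1, up to 4 called genes with the largest change per partner list, lists of at most 5 genes in full, and 3 genes of similar profile per called member. Members and lists were chosen with earlier results of these data known. Alternatives covered scaling, dim genes, moderation, array weights, arrays fitted, row choice and each array left out. Same-numbered arrays were not taken as pairs.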

Additional observations from a re-analysis of the deposited data

Results flagged for a closer look

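The row shared by Hspa1a and Hspa1b (10450367) is outside the tested genes, because it has several symbols, and its signal was above that of the control arrays in all 3 HSF1 shRNA arrays, with a log2 difference of 0.13. The lowest HSF1 shRNA array and the highest control array both read 10.47 when rounded, so the groups only just separate. In the fit to every annotated row the adjusted p was 0.33.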

How the results depend on the processing

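Of 483 recomputed member differences, 421 kept their direction and their side of the threshold, 28 lost and 23 gained a call, and 11 changed sign, all of the last without a call. In every case the cause was not tested. Some alternatives, such as leaving out an array of the group not compared, can move only the standard error and adjusted p. For these the direction was fixed in advance, so the count of 421 is no measure of robustness. Array weights gave 5313 genes with HSF1 shRNA and 9065 with RPA1 shRNA against the control, and 7926 between the hairpins; for the members 5, 6 and 5, and for the partners 20 with RPA1 shRNA and 19 between the hairpins. The member count with HSF1 shRNA was also 5 with an intensity trend and robust prior, 1 with cyclic loess and 1 with quantile scaling over the tested genes, an alternative chosen after seeing the data, as were the values of partners and of shared rows without RPA1 shRNA array 3, the other Hspa8 rows and the test of the row shared by Hspa1a and Hspa1b. Partners between the hairpins were 12 among genes above the median gene and 3 with the 6 arrays compared. Leaving out 1 array gave 1953 to 4696, 4642 to 7245 and 3228 to 6539 genes for HSF1 shRNA, RPA1 shRNA and between the hairpins, 1 to 4, 2 to 5 and 3 to 3 members, and 5 to 12, 8 to 16 and 3 to 13 partners. The sign of Hspa4l with RPA1 shRNA turned with quantile scaling over all rows (0.022) or tested genes (0.018) and among the left-out arrays (-0.24 to 0.10). That of Hspa8 with RPA1 shRNA turned with the same scalings (0.0011 and 0.0062), that of Hspa4 between the hairpins with array weights (0.014) and left-out arrays (-0.051 to 0.029), and that of Hspa1a between the hairpins with left-out arrays (-0.15 to 0.040).

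With the replicate number as a block, the member count with HSF1 shRNA was 1 and the counts over all genes were 2799, 5692 and 4414. Deviations of same-numbered arrays correlated at -0.16 to 0.09 and 5 of 9 arrays correlated best with their own number. The labels do not say whether same-numbered arrays share a culture or batch, and these values cannot decide it. Among genes above the median gene Hspa1l was not tested.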
